A study of Rattus norvegicus with 18 samples.

Results

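The 8 genes described here belong to the voltage-gated calcium channel family: the auxiliary alpha-2-delta subunit genes Cacna2d1, Cacna2d2 and Cacna2d3, and the pore-forming alpha-1 subunit genes Cacna1a, Cacna1b, Cacna1c, Cacna1d and Cacna1h. They were chosen by gene symbol, and all 8 were found, each in a single row, among the 25678 genes of the deposited table of reads. Messenger RNA was sequenced from dorsal root ganglia of rats, which hold the cell bodies of sensory neurons with their glia, vessels and immune cells. The study set out to find how Shentong Zhuyu decoction, a mixture of 12 traditional ingredients, acts on gene expression in a neuropathic pain model. The 18 libraries formed 6 groups of 3: the pain model (NPP) given the decoction (NPP_herb), the pain model given solvent (NPP_solvent), sham animals given the decoction (Sham_herb), sham animals given solvent (Sham_solvent), control animals given solvent (Ctrl_solvent) and controls with no added treatment in their name (Ctrl). The sources used here do not give the strain, sex or age of the rats, how the pain model was produced, or the dose and sampling time. They also leave unsaid whether each library is a different rat, so the p-values speak to the spread among these libraries only, and that spread may be technical.

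Voltage-gated calcium channels open when a neuron depolarises and admit the calcium that triggers transmitter release, shapes firing and drives signalling to the nucleus. The alpha-1 subunit forms the pore and sets the channel type, a beta subunit helps to carry it to the membrane, and an alpha-2-delta subunit raises the number of channels there. Cacna1b encodes the N-type pore, the target of the analgesic ziconotide, Cacna1a the P/Q-type pore, Cacna1c and Cacna1d L-type pores, and Cacna1h a T-type pore that opens at low voltage. The analgesics gabapentin and pregabalin bind the proteins made from Cacna2d1 and Cacna2d2 but not that made from Cacna2d3, and Cacna2d1 is known for its increase in rat sensory neurons after nerve injury. These are facts of the field and were not measured here.

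The libraries held 18170925 to 50289652 counted reads, and the 8 genes together spanned 48 reads (Cacna2d1, lowest library) to 5468 reads (Cacna2d3, highest library). All 8 passed the filter on low counts, which left 17043 genes for testing. The 14 pan-neuronal marker genes were all present and summed to between 26300 and 35800 CPM (counts scaled to library size) over the libraries, against 8.05 to 24.6 CPM for 6 skeletal muscle genes, and none of these markers was at 0 in all libraries. In tissue of this kind, fewer cells of a type and less RNA per cell cannot be told apart.

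Promoter windows, which reach from 250 bases before to 50 bases after a transcription start, were found for 7 of the 8 genes in a RefSeq table of the GRCr8 assembly; Cacna1h had no entry. The upstream 250 bases are shown for the 3 alpha-2-delta genes, which include both gabapentin targets, and for Cacna1b, whose level went with both of them across libraries, each 5′ to 3′ on the strand of the gene, with GC boxes (GGGCGG or its reverse complement CCGCCC) in capitals.
Cacna2d1, chr4:20330148-20330397, minus strand: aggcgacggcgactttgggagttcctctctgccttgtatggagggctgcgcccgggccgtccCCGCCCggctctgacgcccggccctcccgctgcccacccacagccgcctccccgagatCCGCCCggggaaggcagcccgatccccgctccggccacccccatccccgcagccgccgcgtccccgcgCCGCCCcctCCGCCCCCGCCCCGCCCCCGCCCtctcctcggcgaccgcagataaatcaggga
Cacna2d2, chr8:116950856-116951105, plus strand: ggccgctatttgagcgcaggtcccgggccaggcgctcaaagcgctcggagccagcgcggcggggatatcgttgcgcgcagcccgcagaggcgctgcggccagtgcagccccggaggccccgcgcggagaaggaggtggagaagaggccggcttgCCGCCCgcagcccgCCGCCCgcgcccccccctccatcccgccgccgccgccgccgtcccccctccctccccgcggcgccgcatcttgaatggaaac
Cacna2d3, chr16:4918900-4919149, minus strand: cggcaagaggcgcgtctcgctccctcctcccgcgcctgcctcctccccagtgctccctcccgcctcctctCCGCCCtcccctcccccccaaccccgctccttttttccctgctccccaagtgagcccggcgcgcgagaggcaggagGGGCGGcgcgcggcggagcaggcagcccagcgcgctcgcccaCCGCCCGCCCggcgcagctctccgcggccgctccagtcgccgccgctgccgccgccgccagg
Cacna1b, chr3:27944286-27944535, minus strand: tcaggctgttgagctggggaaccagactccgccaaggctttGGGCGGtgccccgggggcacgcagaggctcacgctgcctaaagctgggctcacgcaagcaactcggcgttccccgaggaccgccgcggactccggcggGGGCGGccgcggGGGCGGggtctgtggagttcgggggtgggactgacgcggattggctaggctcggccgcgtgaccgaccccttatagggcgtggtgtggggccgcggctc
The stretch shown for Cacna2d1 held 7 GC boxes, some of them overlapping, and lies at the most upstream of 3 annotated starts. Those for Cacna2d2, Cacna2d3 and Cacna1b held 2, 4 and 3. Over the whole window of 300 bases, the first window of Cacna2d1 and those of the other 3 genes had the same counts. Among all 33469 windows of 300 bases in the table, 33.1% held at least 1 GC box. The window of Cacna1d held 10 GC boxes, that of Cacna1a held 1, and that of Cacna1c held none. GC content was 72.0% to 88.7% in the windows of the 6 genes other than Cacna1c, and 51.7% in that of Cacna1c, where the median of all windows was also 51.7%. No window of the 7 genes held the cyclic AMP response element TGACGTCA, the AP-1 site TGANTCA or the TATA box TATAAA on either strand, which 1.83%, 7.33% and 14.2% of all windows held. These matches describe letters in a window and do not show binding.

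On the deposited scale per gene length (FPKM, reads scaled to gene length and library size), Cacna2d3 had the highest level of the 8 genes, with a median of 22.8 FPKM over 18 libraries and a range of 19.9 to 25.6. Its gabapentin-binding relatives were lower: Cacna2d2 had a median of 7.50 FPKM (4.72 to 14.0) and Cacna2d1 a median of 1.11 FPKM (0.45 to 3.47). Of the FPKM summed over the 4 alpha-2-delta genes, Cacna2d3 took a median of 71.0% (59.3% to 80.9%), Cacna2d2 took 23.0% (17.3% to 35.6%) and Cacna2d1 took 3.36% (1.65% to 10.9%). The transcript for the subunit that does not bind gabapentin was the most abundant of its family in each of the 18 libraries.

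Among the pores, the N-type gene Cacna1b led with a median of 5.54 FPKM (3.83 to 7.0), ahead of the P/Q-type gene Cacna1a at 3.76 FPKM (2.51 to 5.14) and the T-type gene Cacna1h at 2.72 FPKM (1.96 to 3.71). The L-type genes were lower, with 1.49 FPKM (1.07 to 1.90) for Cacna1c and 0.295 FPKM (0.15 to 0.39) for Cacna1d. Cacna1b took a median of 37.4% of the FPKM of the 10 alpha-1 genes, Cacna1a 25.9%, Cacna1h 18.4%, Cacna1c 10.2% and Cacna1d 2.05%. In the joint order of the 8 genes, each gene stood above its lower neighbour in all 18 libraries, except that Cacna1a stood above Cacna1h in 17 and Cacna1c above Cacna2d1 in 10 of 18. Cacna1c and Cacna2d1 thus had no fixed order, since the level of Cacna2d1 moved widely from library to library.

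**Figure D1:**
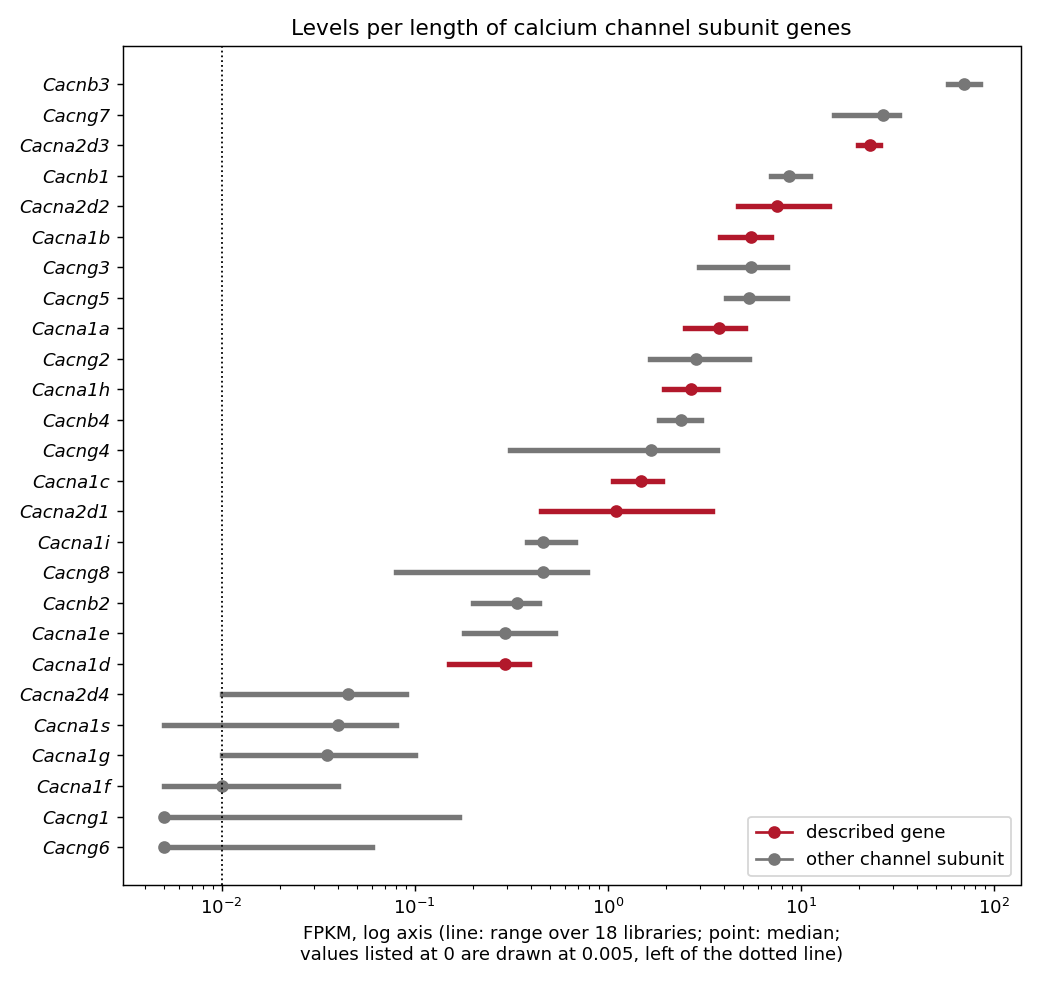
Level per length of the 8 described genes (red) and 18 other channel subunit genes (grey) in 18 libraries, as FPKM on a log axis, where the line spans the lowest to the highest library and the point is the median. Cacna2d3 has a short line near 22.8 FPKM, while the line of Cacna2d1 runs from 0.45 to 3.47 FPKM.

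The 8 genes differed in how much they varied over libraries. Cacna2d1 had a coefficient of variation of 63.2% in CPM, larger than that of 96.5% of the tested genes within 2-fold of its level, and its highest library stood 6.98 times above its lowest. Cacna2d2 followed with 26.4%, larger than in 95.2% of genes of like level. Cacna2d3 varied by 7.22%, and only 14.6% of genes of like level varied less. The alpha-1 genes lay between 14.7% (Cacna1c) and 21.2% (Cacna1d), where the median over all tested genes was 17.3%. Among genes of like level, 76.1% varied less than Cacna1a, 78.2% less than Cacna1b and 77.4% less than Cacna1h. For Cacna1c and Cacna1d these shares were 48.4% and 53.2%.

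Cacna2d1, the main gabapentin target and the gene that marks nerve injury in rat ganglia, had 13.2, 9.37 and 11.4 CPM in NPP_herb and 13.6, 3.95 and 14.2 CPM in NPP_solvent. It had 4.08, 8.54 and 9.52 CPM in Sham_herb, 2.11, 5.60 and 2.87 CPM in Sham_solvent, 2.60, 4.09 and 14.7 CPM in Ctrl_solvent, and 3.83, 2.81 and 3.62 CPM in Ctrl. Most NPP libraries were high, yet replicate 2 of NPP_solvent lay among the Sham_solvent values and replicate 3 of Ctrl_solvent was the highest of all 18. Ctrl was the most even group, at 3.42 ± 0.538 CPM (SD, n = 3).

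Cacna2d2, which encodes the second gabapentin-binding subunit, had 45.9, 57.8 and 59.0 CPM in NPP_herb and 50.8, 47.9 and 59.3 CPM in NPP_solvent. It had 51.6, 86.4 and 50.7 CPM in Sham_herb, 31.5, 45.3 and 36.5 CPM in Sham_solvent, 30.5, 46.7 and 42.9 CPM in Ctrl_solvent, and 41.8, 40.0 and 62.0 CPM in Ctrl. The 3 Sham_solvent libraries lay below every NPP and Sham_herb library, but not below all control libraries. The share of all genes with such a split was not counted.

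Cacna2d3, whose product does not bind gabapentin, had 92.8, 87.5 and 106.9 CPM in NPP_herb and 99.8, 94.3 and 93.1 CPM in NPP_solvent. It had 109.9, 97.4 and 99.6 CPM in Sham_herb, 99.8, 107.4 and 101.9 CPM in Sham_solvent, 92.1, 109.2 and 87.1 CPM in Ctrl_solvent, and 97.4, 94.2 and 106.2 CPM in Ctrl. No group stood apart for this gene.

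Cacna1b, the N-type pore gene, had 66.8, 63.8 and 79.1 CPM in NPP_herb and 67.3, 61.7 and 81.7 CPM in NPP_solvent. It had 71.4, 64.2 and 72.3 CPM in Sham_herb, 47.7, 60.9 and 52.8 CPM in Sham_solvent, 45.1, 64.8 and 64.1 CPM in Ctrl_solvent, and 60.8, 51.5 and 70.2 CPM in Ctrl. As for Cacna2d2, every NPP and Sham_herb library exceeded every Sham_solvent library, here by as little as 61.7 against 60.9 CPM. For both genes this rests on the same Sham_solvent libraries, and the share of all genes with such a split was not counted.

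The P/Q-type gene Cacna1a averaged 56.4 ± 10.7 CPM in NPP_herb, 51.4 ± 6.77 in NPP_solvent, 51.2 ± 2.37 in Sham_herb, 49.2 ± 6.93 in Sham_solvent, 42.8 ± 9.43 in Ctrl_solvent and 54.3 ± 7.46 in Ctrl (SD, n = 3 each). The T-type gene Cacna1h averaged 24.3 ± 7.61 CPM in NPP_herb, 25.9 ± 3.18 in NPP_solvent, 26.2 ± 2.27 in Sham_herb, 21.8 ± 4.20 in Sham_solvent, 24.2 ± 3.14 in Ctrl_solvent and 26.5 ± 6.29 in Ctrl (SD, n = 3 each). Their groups overlapped in each of these sets, with the lowest Cacna1a library in Ctrl_solvent (32.8 CPM) and the highest in NPP_herb (67.1 CPM).

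Of the L-type pores, Cacna1c averaged 12.9 ± 1.87 CPM in NPP_herb, 15.1 ± 2.03 in NPP_solvent, 13.0 ± 1.71 in Sham_herb, 12.9 ± 2.94 in Sham_solvent, 12.3 ± 0.872 in Ctrl_solvent and 15.0 ± 1.59 in Ctrl (SD, n = 3 each). Cacna1d was scarce, with 5.80 ± 1.28 CPM in NPP_herb, 5.62 ± 1.28 in NPP_solvent, 5.51 ± 0.633 in Sham_herb, 4.24 ± 1.17 in Sham_solvent, 5.55 ± 1.74 in Ctrl_solvent and 6.17 ± 0.516 in Ctrl (SD, n = 3 each). Its values rest on 73 to 268 reads per library, so that its relative precision is lower than that of the other pores.

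**Figure D2:**
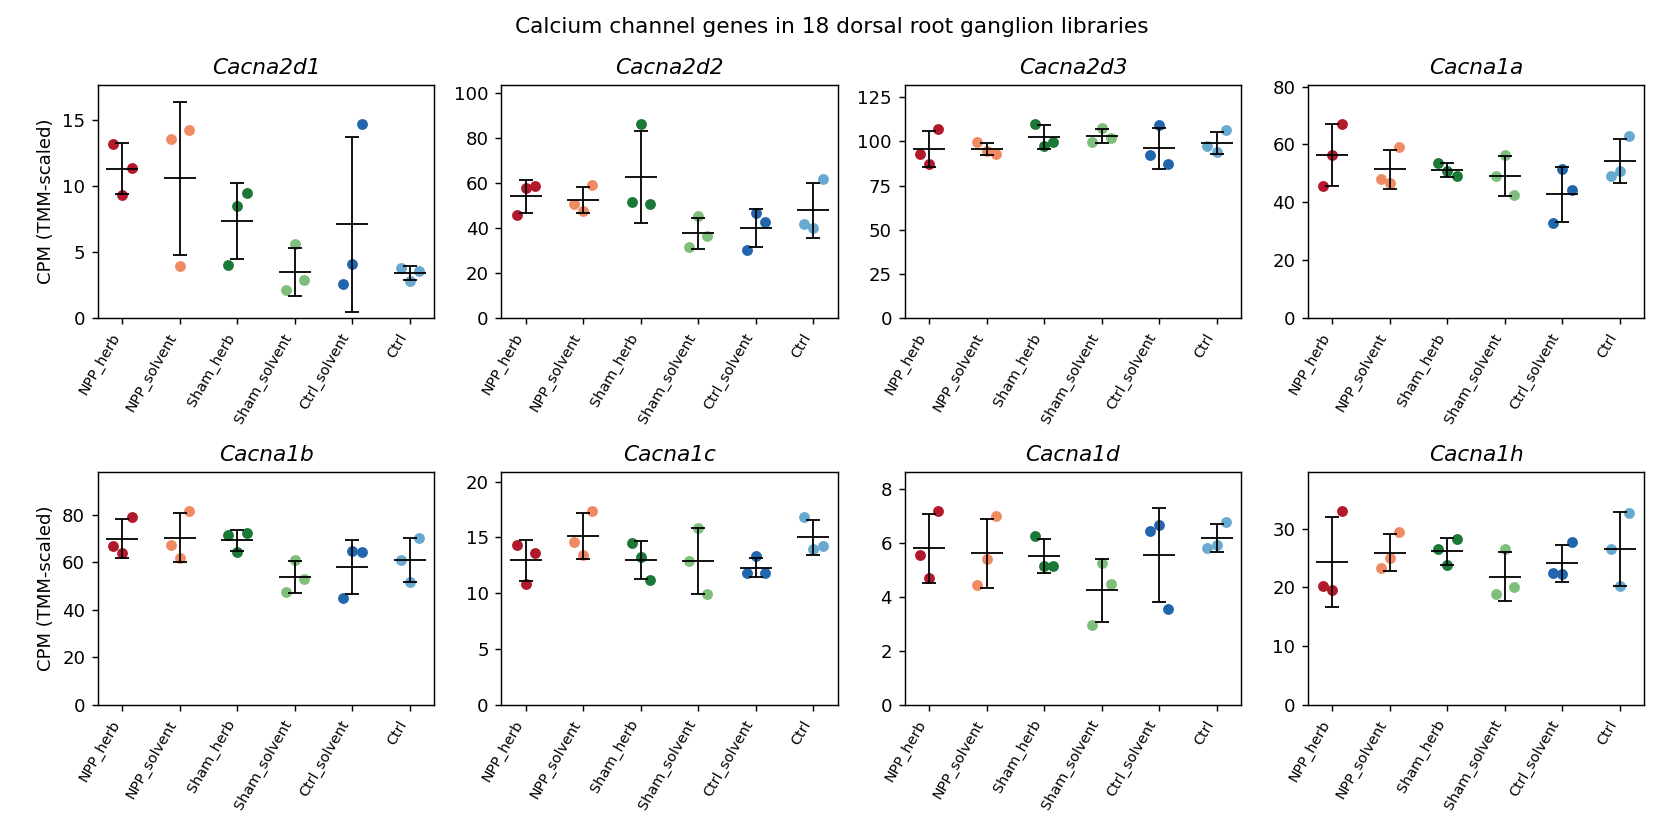
CPM of each of the 8 genes in the 18 libraries by group, where each point is a library and the bars give mean and SD (n = 3). Cacna2d1 spreads from 2.11 to 14.7 CPM and Cacna2d3 only from 87.1 to 109.9 CPM.

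The effect of the pain model under solvent was read from NPP_solvent against Sham_solvent. Differences are log2 fold changes ± SE, with the first named group over the second. Fold changes and p-values come from the quasi-likelihood test of edgeR, and adjusted p-values cover all genes tested. The SE was derived as the absolute log2 fold change over the square root of the test's F value. The 95% intervals were built from this SE with a t quantile. Cacna2d1 was higher by 1.57 ± 0.60 (95% interval 0.28 to 2.85; adjusted p = 0.755), with a mean of 10.6 ± 5.77 CPM in NPP_solvent and 3.53 ± 1.83 CPM in Sham_solvent, and the groups overlapped. Cacna1b was higher by 0.38 ± 0.15 (0.06 to 0.70; adjusted p = 0.755) and Cacna2d2 by 0.48 ± 0.22 (0.00 to 0.95; adjusted p = 0.755), in both cases with groups that did not overlap. None of these differences passed adjustment. With 1 library left out they ran from 1.29 to 2.09 for Cacna2d1, 0.26 to 0.48 for Cacna1b and 0.36 to 0.63 for Cacna2d2. The Cacna2d2 difference was smallest without replicate 1 of Sham_solvent and largest without replicate 2 of Sham_solvent. Cacna2d3 differed by -0.11 ± 0.10 (-0.31 to 0.10) and Cacna1a by 0.06 ± 0.17 (-0.29 to 0.41). Cacna1c, Cacna1d and Cacna1h had differences of 0.23 ± 0.17, 0.40 ± 0.26 and 0.25 ± 0.20. No gene among the 17043 passed at an adjusted p of 0.05 by edgeR (0% called) or by DESeq2; 5.67% of them (967 genes) had an unadjusted p under 0.05, as had 3 of the 8 channel genes, and 4.44% stood higher in NPP_solvent without overlap, as did 2 of the 8. The median difference of the 8 genes was 0.32, against 0.01 for all genes.

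The groups were also compared in gene length and marker genes. The slope of log2 CPM on log2 gene length, which is larger in a library that is richer in reads of long transcripts, was 0.134, 0.0855 and 0.242 in NPP_solvent and -0.00918, 0.203 and 0.0534 in Sham_solvent, so that the groups overlapped. With this slope as a covariate the differences were 1.10 for Cacna2d1, 0.29 for Cacna2d2, 0.20 for Cacna1b and -0.16 for Cacna2d3, and the adjusted p of each was 0.9999 by edgeR. A list of 8 injured-neuron genes, all detected, summed to between 392 and 759 CPM in NPP_solvent and between 302 and 500 CPM in Sham_solvent. The large-diameter and pan-neuronal lists were lower in NPP_solvent without overlap, and the nociceptor list was higher without overlap. Of single genes, 4.44% stood higher in NPP_solvent without overlap. The share of genes that stood lower was not counted, and no such share was taken for lists. The 5 genes of large-diameter neurons summed to 8720 to 9190 CPM in NPP_solvent and 10000 to 12100 CPM in Sham_solvent, and the 14 pan-neuronal genes to 31600 to 32500 CPM in NPP_solvent and 32900 to 35800 CPM in Sham_solvent. The 8 nociceptor genes summed to 2400 to 2820 CPM in NPP_solvent and 2070 to 2350 CPM in Sham_solvent. The ranges of the other lists overlapped, and no gene of these 4 lists was at 0 in all libraries. The part of these marker genes in the channel differences was not tested.

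The effect of the decoction within the model was read from NPP_herb against NPP_solvent. All 8 differences were small: they ran from -0.23 (Cacna1c) to 0.13 (Cacna1a), and each adjusted p was 1. No gene was called by edgeR (0%), 1 was by DESeq2 and none of the 8 by either; no channel gene had an unadjusted p under 0.05, as had 1.87% of all genes (319). The interval for Cacna2d3 was the narrowest, at 0.00 ± 0.10 (-0.21 to 0.21). For Cacna1b the difference was -0.01 ± 0.15 (-0.33 to 0.31) and for Cacna2d2 0.04 ± 0.22 (-0.43 to 0.52). For Cacna2d1 the interval of 0.09 ± 0.58 (-1.15 to 1.34) leaves room for a change of more than 2-fold in either direction, so the libraries could not settle whether its level differed.

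Among sham animals, Sham_herb stood above Sham_solvent for 7 of the 8 genes. Cacna2d2 was higher by 0.73 ± 0.22 (0.26 to 1.21; adjusted p = 0.491 by edgeR), with means of 62.9 ± 20.4 CPM in Sham_herb and 37.8 ± 7.0 CPM in Sham_solvent and no overlap. Cacna1b was higher by 0.36 ± 0.15 (0.04 to 0.68; adjusted p = 0.491), again without overlap. Cacna2d1 differed by 1.04 ± 0.60 (-0.24 to 2.32; adjusted p = 0.517) with overlapping groups, and Cacna2d3 by -0.01 ± 0.10 (-0.22 to 0.20). None passed adjustment. No gene was called by edgeR (0%) or DESeq2; 9.89% (1686 genes) had an unadjusted p under 0.05, as had 2 of the 8 channel genes, and 8.52% stood higher in Sham_herb without overlap, as did 2 of the 8. The length slope was 0.182, 0.206 and 0.181 in Sham_herb and -0.00918, 0.203 and 0.0534 in Sham_solvent, and with it as a covariate the differences were 0.44 for Cacna2d2, 0.10 for Cacna1b and 0.39 for Cacna2d1. Without replicate 2 of Sham_herb, which had the highest Cacna2d2 level of all libraries, the Cacna2d2 difference was 0.43. The Cacna2d1 difference was 0.78 without replicate 1 of Sham_solvent and 1.56 without replicate 2 of Sham_solvent. This comparison and that of NPP_solvent share the Sham_solvent libraries, so their values are not independent.

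Whether the decoction acted differently in the model and in sham animals was tested as the difference of both effects. For Cacna2d2 it was -0.69 ± 0.32 (-1.36 to -0.02; adjusted p = 0.92), for Cacna1b -0.37 ± 0.21 (-0.82 to 0.08) and for Cacna2d1 -0.94 ± 0.83 (-2.73 to 0.84), by edgeR. Without replicate 2 of Sham_herb the value for Cacna2d2 was -0.38, and with the length slope as a covariate it was -0.40 for Cacna2d2, -0.12 for Cacna1b and -0.23 for Cacna2d1. It was negative for 6 of the 8 genes and passed adjustment for none, as for no other gene by edgeR (0% called). By DESeq2 3 genes passed, none of them among the 8. An unadjusted p under 0.05 was found for 3.40% of all genes (580) and for 1 of the 8.

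With treatments pooled, 6 NPP libraries were set against 6 Sham libraries. Cacna2d1 was higher by 1.09 ± 0.42 (0.20 to 1.99; adjusted p = 0.998 by edgeR), with a mean of 11.0 CPM in NPP and 5.45 CPM in Sham, and the groups overlapped. Its lowest NPP library (3.95 CPM) was below 4 of the 6 Sham libraries (4.08, 5.60, 8.54 and 9.52 CPM), and 5 of the 6 NPP libraries were above 9 CPM. The other 7 genes differed by -0.10 (Cacna2d3) to 0.24 (Cacna1d), with Cacna1b at 0.20 ± 0.11 (-0.03 to 0.42). No gene was called by edgeR (0%) or DESeq2; 2.53% of all genes (432) had an unadjusted p under 0.05, against 1 of the 8.

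The control comparisons set sham against control animals under solvent, and controls with solvent against those without it. In Sham_solvent against Ctrl_solvent, Cacna2d1 differed by -0.99 ± 0.60 (-2.28 to 0.29; adjusted p = 0.891 by edgeR), but without replicate 3 of Ctrl_solvent the value was 0.10. The other 7 genes differed by -0.38 (Cacna1d) to 0.20 (Cacna1a). In Ctrl_solvent against Ctrl, Cacna2d1 differed by 1.05 ± 0.61 (-0.25 to 2.36; adjusted p = 0.491), and without the same library by -0.02. Cacna1a was lower by 0.34 in Ctrl_solvent (log2 fold change -0.34 ± 0.17, -0.69 to 0.01; adjusted p = 0.4). For Cacna1c the value was -0.28 ± 0.17 (adjusted p = 0.498), with 11.8, 13.3 and 11.8 CPM in Ctrl_solvent and 16.8, 14.0 and 14.2 CPM in Ctrl, which did not overlap, as was so in this direction for 8.15% of all genes. No channel gene had an unadjusted p under 0.05 in either comparison; of all genes 6.12% (1043) had one in the first and 13.0% (2218) in the second. By edgeR 0% passed adjustment in each, and by DESeq2 35 genes passed in the first and 471 in the second, none of them among the 8.

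**Figure D3:**
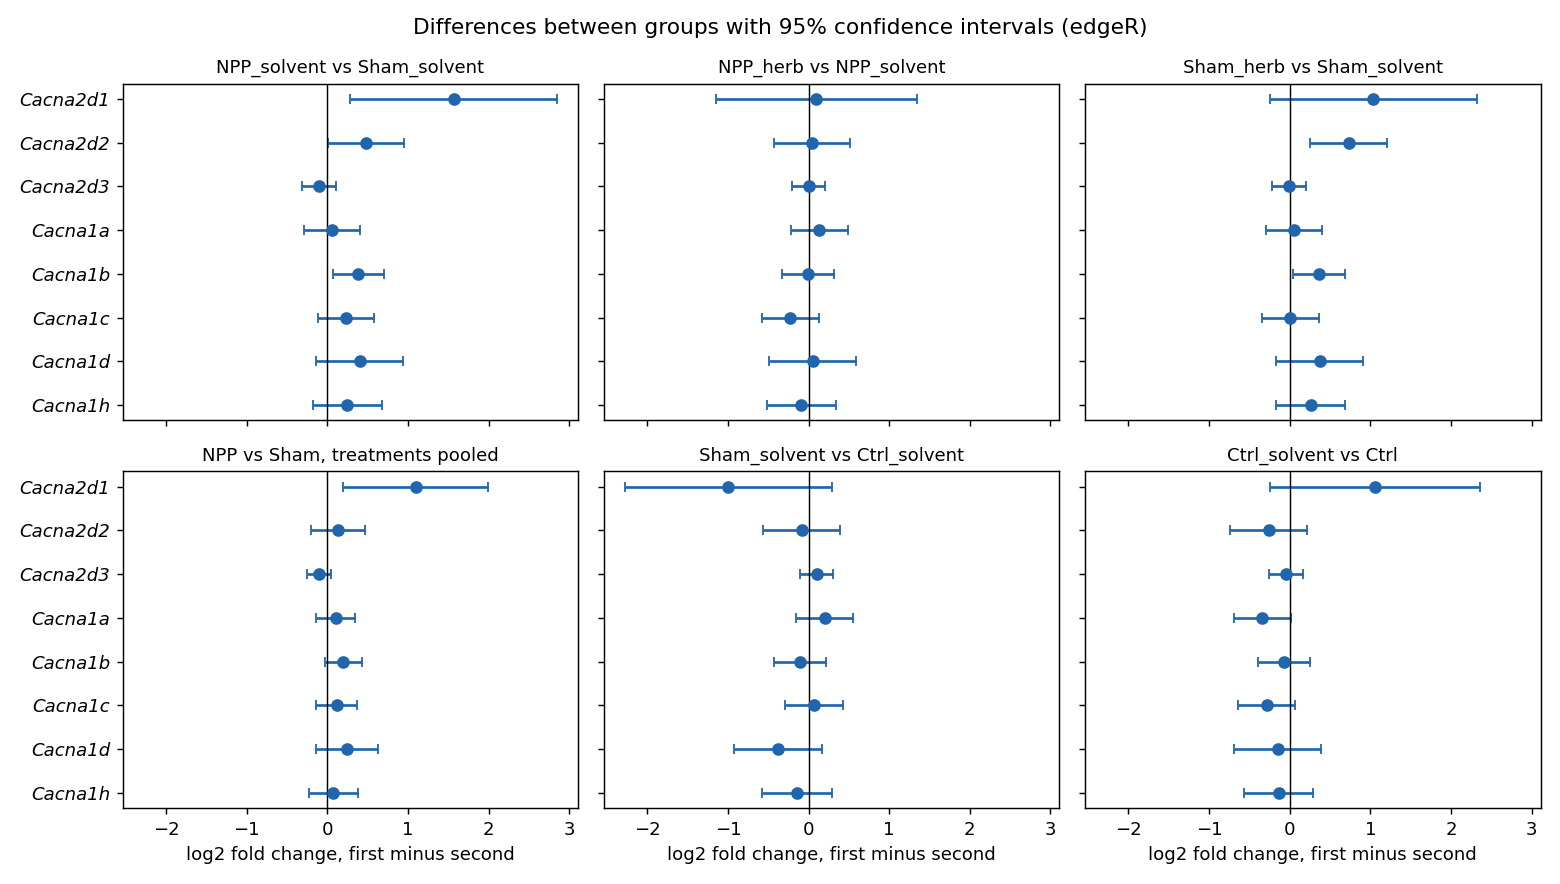
Log2 fold changes of the 8 genes in 6 comparisons, first named group over second, with 95% confidence intervals derived from the F values of edgeR. Intervals are widest for Cacna2d1 and narrowest for Cacna2d3, and no difference passed adjustment over 17043 genes.

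A test of any difference among the 6 groups, which has no direction, gave an adjusted p of 0.484 for Cacna2d2, 0.487 for Cacna2d1 and 0.533 for Cacna1b by edgeR. The other 5 genes had adjusted p-values of 0.663 to 0.898. No gene was called by edgeR (0%) and 475 were by DESeq2, none of them among the 8; 10.2% of all genes (1745) had an unadjusted p under 0.05.

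Because Cacna2d1 is known as an injury-responsive gene, its level was set beside Atf3, a transcription factor gene switched on in axotomised sensory neurons. Atf3 had 50.9, 107.3 and 10.8 CPM in NPP_herb and 83.1, 39.4 and 14.0 CPM in NPP_solvent. It had 11.6, 10.7 and 54.5 CPM in Sham_herb, 13.0, 14.4 and 29.5 CPM in Sham_solvent, 15.9, 10.4 and 94.6 CPM in Ctrl_solvent, and 9.69, 9.60 and 9.53 CPM in Ctrl. Replicate 3 of Ctrl_solvent, labelled a control, was high for both genes. The match was incomplete: replicate 3 of NPP_herb and of NPP_solvent had high Cacna2d1 (11.4 and 14.2 CPM) with Atf3 near its control level (10.8 and 14.0 CPM), and replicate 2 of NPP_solvent had Atf3 at 39.4 CPM with Cacna2d1 at 3.95 CPM. Atf3 itself did not pass in NPP_solvent against Sham_solvent (log2 fold change 1.26 ± 1.01, adjusted p = 0.781 by edgeR). Of the other injury genes, Npy and Gal had 196 and 32.9 CPM in replicate 3 of Ctrl_solvent. They had 1.23 and 7.79 CPM in replicate 3 of NPP_herb, and 3.18 and 7.80 CPM in replicate 3 of NPP_solvent. In replicate 2 of NPP_solvent they had 58.2 and 29.45 CPM. In Ctrl they ran from 0.62 to 1.41 and from 6.56 to 11.49 CPM.

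The genes that tracked each channel gene most closely over the 18 libraries were taken from 13235 genes with a mean of at least 1 CPM, by Pearson r of log2 CPM; these are descriptions without a test, and the points share library composition. Cacna2d1 was most like Exoc5, an exocyst subunit gene (r = 0.93), Trpa1, which encodes a channel for irritants in nociceptors (r = 0.927), and Pcnx1 (r = 0.926), and with group means removed these were 0.891, 0.883 and 0.893. Trpa1 had 43.4, 30.5 and 45.1 CPM in NPP_herb and 40.3, 22.8 and 56.2 CPM in NPP_solvent, so that the same NPP_solvent library was low for both genes. It had 21.0, 34.6 and 34.1 CPM in Sham_herb and 11.5, 28.8 and 19.7 CPM in Sham_solvent. In Ctrl_solvent Trpa1 had 16.9, 25.2 and 35.4 CPM, and in Ctrl 23.1, 16.8 and 28.2 CPM. Replicate 3 of Ctrl_solvent, the highest library for Cacna2d1, was thus not the highest for Trpa1.

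Cacna2d2 was most like Tshz2 (r = 0.869), Gpr149 (r = 0.86) and Syt7, a calcium sensor gene of vesicle fusion (r = 0.858). Cacna2d3 was most like Nefl, the light neurofilament gene (r = 0.816), Hoxd1 (r = 0.805) and Rimkla (r = 0.8). For Cacna1b they were Ank2, which encodes the membrane scaffold ankyrin-B (r = 0.943), Rufy2 (r = 0.938) and Hspa12a (r = 0.934). Cacna1a was closest to Atxn2 (r = 0.928), Ttl (r = 0.871) and Camk1d (r = 0.866), and Cacna1h to Faf2 (r = 0.903), Ubr4 (r = 0.891) and Xpo6 (r = 0.885). Cacna1c was closest to Col4a1, a gene of basement membrane collagen (r = 0.833), Cpne7 (r = 0.817) and Ppfia1 (r = 0.797), and Cacna1d to Amigo1 (r = 0.838), Dusp8 (r = 0.835) and Amigo2 (r = 0.827).

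**Figure D4:**
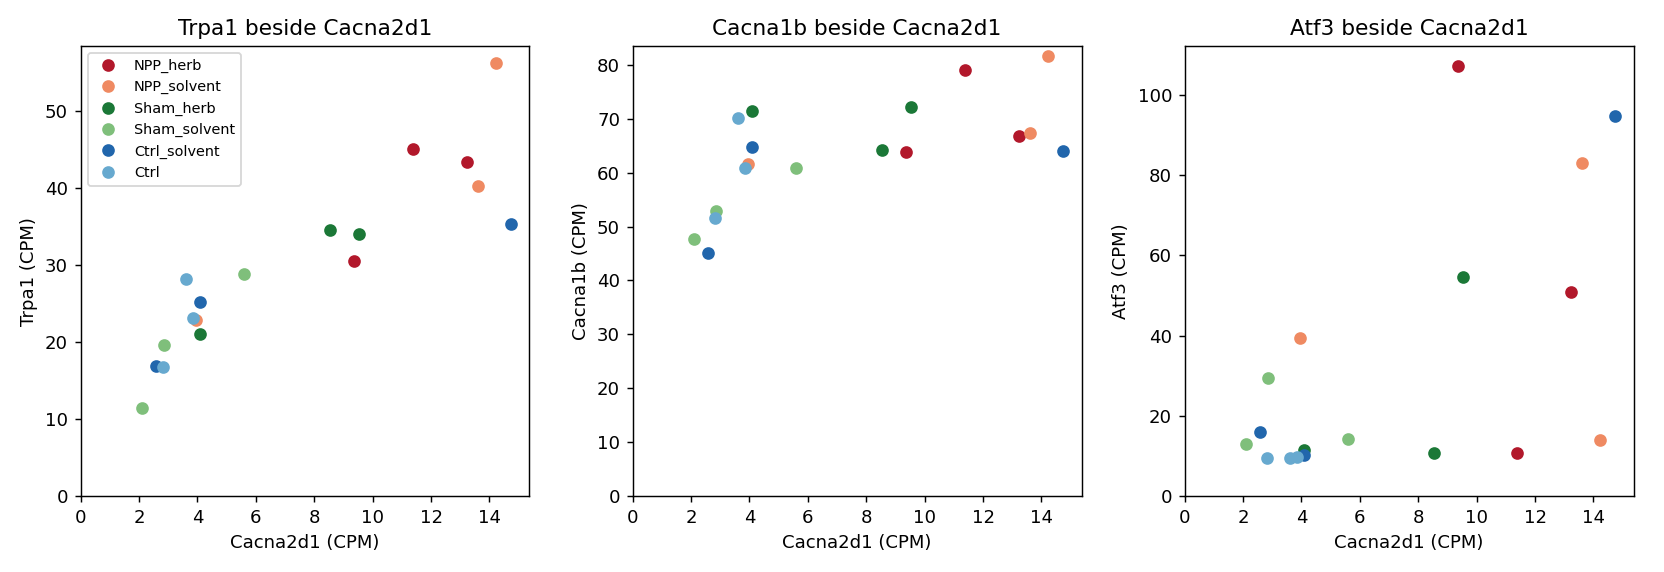
CPM of Trpa1, Cacna1b and Atf3 (vertical axes) against CPM of Cacna2d1 (horizontal axes), 1 point per library, coloured by group. Trpa1 tends to be higher where Cacna2d1 is higher, with scatter. At Cacna2d1 of 14.7 CPM (replicate 3 of Ctrl_solvent) Trpa1 is at 35.4 CPM, and at 14.2 CPM (replicate 3 of NPP_solvent) at 56.2 CPM. Atf3 near 10 to 14 CPM occurs at Cacna2d1 levels up to 14.2 CPM.

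Among the 8 genes themselves, 28 pairs and 8 relations with the mean of the pan-neuronal genes were examined over 18 libraries on log2 CPM, with two-sided permutation p-values adjusted over these 36. Of the pairs, 27 had a positive r, the exception being Cacna2d1 with Cacna2d3 (r = -0.30), and 5 pairs passed. Over all pairs of the 17043 tested genes 49.9% had a positive r, and 4.39% had an r of 0.6 or more, as had 17.9% of the 28 pairs (5). The cut of 0.6 was set with the values of the 28 pairs known, so the shares above it are a description and not a test. The 28 pairs share genes and libraries, and the part of gene length or neuron content in them was not tested. Cacna1b was part of 4 of these 5 pairs. It followed Cacna2d2 (r = 0.756, permutation p = 0.00035, adjusted p = 0.00972; rho = 0.806, p = 0.00012, adjusted p = 0.00432). Without the 2 libraries farthest from the median Cacna2d2 level, r was 0.882. Cacna1b followed Cacna2d1 (r = 0.724, permutation p = 0.0006, adjusted p = 0.00972; rho = 0.703, p = 0.00169, adjusted p = 0.025). Without the 2 libraries farthest from the median Cacna2d1 level, r was 0.718. With Cacna1h, r was 0.693 (permutation p = 0.00135, adjusted p = 0.00972; rho = 0.672, p = 0.00281, adjusted p = 0.0253), and 0.685 without the 2 libraries farthest from the median Cacna1b level. With Cacna1a, r was 0.70 (permutation p = 0.00123, adjusted p = 0.00972), and rho was 0.538 (permutation p = 0.0231, adjusted p = 0.0976). Replicate 1 of Ctrl_solvent and replicate 3 of NPP_herb were farthest from the median Cacna1a level. Without them r was 0.449 (permutation p = 0.0799), so its size depended in part on those libraries. With group means removed, r for this pair was 0.795.

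The remaining pair was Cacna2d2 with Cacna1a (r = 0.648, permutation p = 0.00474, adjusted p = 0.0244; rho = 0.686, p = 0.00208, adjusted p = 0.025). For this pair r was 0.704 without the 2 libraries farthest from the median Cacna2d2 level. After subtraction of group means the 5 pairs had r of 0.583 to 0.795, so libraries within a group varied together as well. Cacna2d3 and Cacna1a followed the pan-neuronal mean, with r = 0.67 (permutation p = 0.00215, adjusted p = 0.0129; rho = 0.657, p = 0.00373) and r = 0.702 (permutation p = 0.00091, adjusted p = 0.00972; rho = 0.612, p = 0.00829). Without replicates 1 and 3 of Ctrl_solvent these were 0.543 (permutation p = 0.0288, adjusted p = 0.087) and 0.518 (permutation p = 0.0407, adjusted p = 0.113), neither of which passed adjustment. With group means removed they were 0.767 and 0.649. Cacna2d1 did not follow it (r = -0.149, permutation p = 0.553, rho = -0.0939, p = 0.711).

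**Figure D5:**
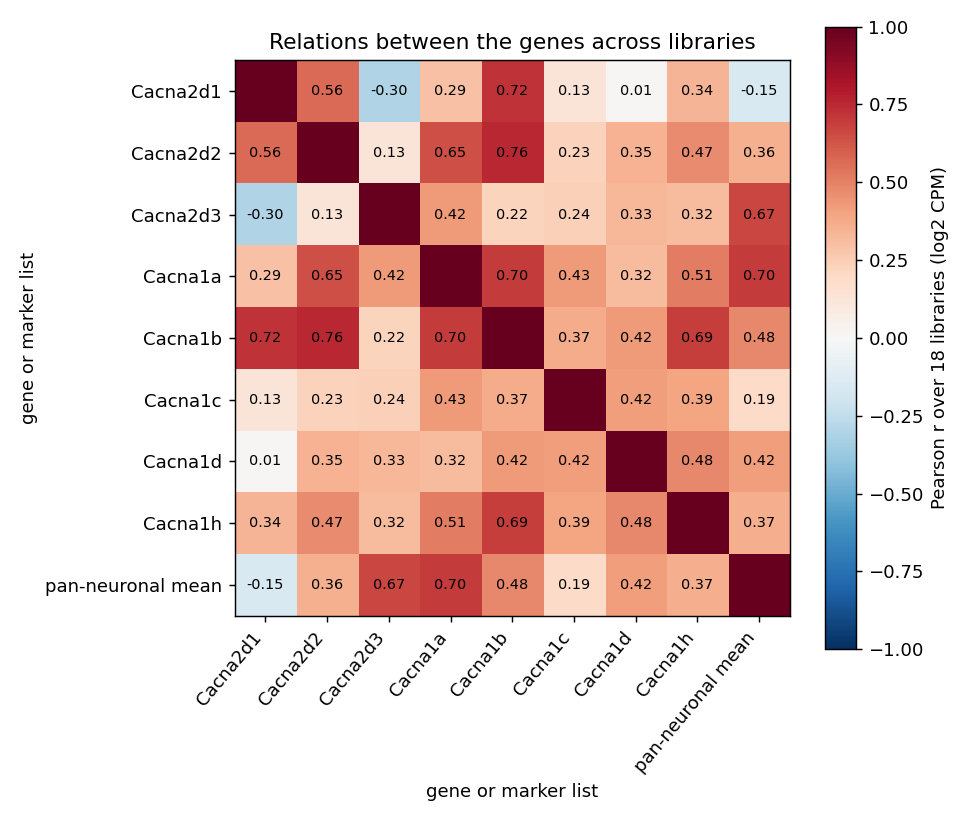
Pearson r of log2 CPM over 18 libraries between the 8 genes and with the mean of 14 pan-neuronal genes, coloured from blue (negative) to red (positive). The row of Cacna1b holds 4 values of 0.69 or more, and Cacna2d1 is negative with Cacna2d3 (-0.30) and with the pan-neuronal mean (-0.15).

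The other 18 channel subunit genes of the list were all in the table, and 15 were tested; Cacna1f, Cacng1 and Cacng6 had too few reads. The beta subunit Cacnb3 had the highest level of any subunit, with a median of 70.0 FPKM, and took 85.7% of the FPKM of the 4 beta genes. The gamma-family genes Cacng7 (26.7 FPKM), Cacng3 (5.50 FPKM), Cacng5 (5.42 FPKM) and Cacng2 (2.87 FPKM), several of which are better known as partners of AMPA receptors, and Cacnb1 (8.67 FPKM) came next. None of the 15 passed in any comparison. In NPP_solvent against Sham_solvent 11 had a positive and 4 a negative difference, with a median of 0.21 against 0.01 for all genes. In Sham_herb against Sham_solvent 14 were positive and 1 negative, with a median of 0.22 against 0.01. Cacnb3 differed by 0.16 ± 0.12 in the first of these and 0.12 ± 0.12 in the second. In NPP_herb against NPP_solvent 8 were positive and 7 negative, and Cacnb3 differed by -0.01 ± 0.12. In Sham_solvent against Ctrl_solvent 2 were positive and 13 negative.

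A list of 27 genes for channel regulators and alpha-2-delta ligands was all in the table, with 26 tested and none passing in any comparison. In NPP_solvent against Sham_solvent 5 of the 26 had an unadjusted p under 0.05 by edgeR, against 5.67% of all genes. In Sham_herb against Sham_solvent 2 of the 26 did, against 9.89% of all genes. The 2 with the smallest p in NPP_solvent against Sham_solvent were Rims2, an active-zone protein that binds calcium channels, and Cabp1, a calcium-binding regulator of channel inactivation. Rims2 had a mean of 44.1 CPM in NPP_solvent and 31.6 CPM in Sham_solvent (log2 fold change 0.48 ± 0.14, adjusted p = 0.755 by edgeR). Cabp1 had a mean of 147.4 CPM in NPP_solvent and 216.6 CPM in Sham_solvent (log2 fold change -0.56, adjusted p = 0.755). The same 2 genes led in Sham_herb against Sham_solvent, with 41.4 CPM in Sham_herb and 31.6 CPM in Sham_solvent for Rims2 (adjusted p = 0.491) and 150.6 CPM in Sham_herb and 216.6 CPM in Sham_solvent for Cabp1 (adjusted p = 0.491). Both comparisons share the Sham_solvent libraries, so they are not independent. Replicate 1 of Sham_solvent was the lowest library of all for Rims2 (29.7 CPM) and the highest for Cabp1 (280.8 CPM). In Ctrl_solvent against Ctrl the smallest p was that of Thbs1, whose product thrombospondin is a ligand of the alpha-2-delta-1 protein, with a mean of 21.0 CPM in Ctrl_solvent and 8.79 CPM in Ctrl (adjusted p = 0.233). Stac had the second smallest p, and 3 of the 26 had an unadjusted p under 0.05 by edgeR, against 13.0% of all genes.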

How the data were processed

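RNA-seq libraries of rat dorsal root ganglia, 18 in all, were grouped by their labels into 6 groups of 3. Per the labels' protocols, libraries were made with a stranded kit. Per the submitters' processing notes, the build was mRatBN7.2 and the tools included HISAT2 and DESeq2 (no versions). Which program counted the reads, with what strand setting and gene annotation, is not given in the sources used here. In the RefSeq gene table of GRCr8, 7 of the 8 genes (all but Cacna1b) overlap another annotated gene, and reads of such neighbours could not be told apart with certainty.

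The authors deposited raw counts per gene, not normalized, for 25678 genes, and FPKM values (counts scaled by the authors to gene length and library size) for 25557 genes. From the counts, filterByExpr of edgeR 4.0.16 (R 4.3.3, minimum count 10) left 17043 genes, and the genes removed had no more than 0.0495% of reads in a library. After TMM scaling (factors 0.946 to 1.04) the libraries were fitted in 1 model with robust dispersion and 12 residual degrees of freedom. Tests were edgeR's quasi-likelihood F tests with Benjamini-Hochberg adjustment over all genes at a threshold of 0.05. CPM are TMM-scaled counts relative to library size. Levels of the channel genes were ranked against each other in FPKM. Sums of marker lists and the choice of genes of like level used CPM, without correction for gene length. Log2 CPM for relations used a prior count of 2, and relations had 100000 permutations in Python 3.11.15. Gene length was that implied by counts and FPKM, which varied between libraries by 0.349% (median coefficient of variation of 6119 genes). The procedure was tested on simulated counts.

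The 8 genes and all lists were chosen with earlier results of these data known. Named were the 8 genes, the 6 other subunits of highest median FPKM, the 2 regulators of smallest p in a comparison (given here for those against Sham_solvent and for Ctrl_solvent against Ctrl), the 3 genes most like each of the 8, and the injury genes Atf3, Npy and Gal. Alternatives were DESeq2 1.42.0, upper-quartile scaling, other filters, a replicate block, the length slope as a covariate, limma 3.58.1 on log2(FPKM + 0.1) and log2(FPKM + 1), the compared groups alone and leaving out each library. Replicates correlated at a median r of 0.977 within groups, and none agreed within sampling noise.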

Additional observations from a re-analysis of the deposited data

Results flagged for a closer look

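Within the 6 Sham libraries, replicate 2 of Sham_herb stood apart for Cacna2d2 with 86.4 CPM, where the nearest library had 51.6 CPM and the lowest 31.5 CPM. The gap to the nearest library was 0.635 of the whole range, above Dixon's critical value of 0.625 for 6 samples. In all, 16 such sets of 6 libraries were examined (8 genes in NPP and in Sham), and chance flags about 1 in 20. Without this library the Cacna2d2 difference between Sham_herb and Sham_solvent was 0.43 on the log2 scale, against 0.73 with it.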

How the results depend on the processing

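Of 936 values of the 8 genes under alternatives, none passed the threshold (the smallest adjusted p was 0.0652, Cacna2d2 in Sham_herb against Sham_solvent). The direction turned in 44 values with 1 library left out and in 20 others, mostly of differences near 0. Under other settings the turned values were: in NPP_herb against NPP_solvent, Cacna1b 0.0056 (DESeq2), 0.014 (upper quartile), 0.0012 (1 CPM filter) and 0.0043 (compared groups only), and Cacna2d3 -0.0031 (no filter), -0.0064 (length covariate), -0.0045 (FPKM + 0.1) and -0.0041 (FPKM + 1). In Sham_herb against Sham_solvent they were Cacna1c -0.0044 (DESeq2), -0.0044 (upper quartile), -0.19 (length covariate) and -0.0073 (compared groups only), Cacna1a -0.17 and Cacna1h -0.047 (length covariate), and Cacna2d3 0.018 (FPKM + 0.1) and 0.018 (FPKM + 1). The rest were Cacna1a -0.093 in NPP_solvent against Sham_solvent (length covariate), Cacna1c -0.0067 in Sham_solvent against Ctrl_solvent (FPKM + 0.1), and Cacna2d3 -0.023 (FPKM + 0.1) and -0.022 (FPKM + 1) in the difference of herb effects. With 1 library left out the ranges that crossed 0 were as follows. For NPP_solvent against Sham_solvent it was Cacna1a -0.051 to 0.17. For NPP_herb against NPP_solvent they were Cacna2d1 -0.30 to 0.37, Cacna2d2 -0.025 to 0.15, Cacna2d3 -0.088 to 0.068, Cacna1a -0.013 to 0.26, Cacna1b -0.11 to 0.12, Cacna1d -0.14 to 0.24, Cacna1h -0.38 to 0.051. For Sham_herb against Sham_solvent they were Cacna2d3 -0.064 to 0.023, Cacna1a -0.049 to 0.17, Cacna1c -0.15 to 0.19. For pooled NPP against Sham it was Cacna1h -0.074 to 0.16. For Sham_solvent against Ctrl_solvent they were Cacna2d1 -1.51 to 0.10, Cacna2d2 -0.24 to 0.045, Cacna1c -0.11 to 0.24. For Ctrl_solvent against Ctrl they were Cacna2d1 -0.023 to 1.44, Cacna2d3 -0.15 to 0.018, Cacna1b -0.17 to 0.082, Cacna1d -0.31 to 0.085, Cacna1h -0.30 to 0.042. For the difference of herb effects they were Cacna2d3 -0.079 to 0.094, Cacna1a -0.070 to 0.21. The cause was not tested. Counts of genes called, 0 by edgeR, became 1 (NPP_herb against NPP_solvent), 35 (Sham_solvent against Ctrl_solvent), 471 (Ctrl_solvent against Ctrl), 3 (difference of herb effects) and 475 (any difference) under DESeq2, and 1 in Ctrl_solvent against Ctrl under no filter, the 1 CPM filter, the length covariate, FPKM + 0.1 and FPKM + 1. With 1 library left out they ran from 0 to 252 (Sham_solvent against Ctrl_solvent), 0 to 734 (Ctrl_solvent against Ctrl), 0 to 319 (any difference), all highest without replicate 2 of Ctrl_solvent, and 0 to 1 (difference of herb effects). Of 36 relations, 7 passed on log2 CPM and 9 on FPKM.

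Replicate numbers did not pair the samples: deviations of same-numbered libraries correlated at -0.282 to 0.231 (median 0.00821 over 45 pairs), and 4 of 18 libraries correlated best with their own number. With a replicate block no gene was called in any comparison, and Cacna2d1 in NPP_solvent against Sham_solvent was 1.49 (adjusted p = 0.757, edgeR).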
